A study of Drosophila melanogaster with 6 samples.

Results

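Neuropeptides and peptide hormones are short signalling molecules that are cut from longer secreted precursors. The genes described here are 37 Drosophila melanogaster precursor genes, taken as a list of gene symbols that covers peptides of the clock, water balance, feeding, stress and muscle, the insulin-like peptides and the neuropeptide-like precursors. All 37 were among the 17453 genes in the deposited tables, and 33 had enough counts to be tested, out of 11670 genes tested in all.

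The study measured which RNAs are recovered with Zn72D, a zinc finger RNA-binding protein, in adult fly heads. The tested libraries are 3 RNA immunoprecipitates (RIP), made with an antibody against GFP from heads of flies in which a protein trap places GFP in the Zn72D gene. The matching 3 input libraries are RNA from the same kind of lysate before precipitation. Both groups carry the genotype y1 w*; P{PTT-GA}Zn72D[CA07703], come from pooled males and females, lived at 25 C under 12 hours of daily light and were depleted of rRNA. The precipitates were washed 8 times, and the input was 4% of the lysate in the extract protocol and 5% in the design text. No precipitate from untagged flies or with another antibody was analysed here, so RNA that binds Zn72D and RNA that is kept on beads for other reasons cannot be told apart. Nothing states that the replicates came from separate fly collections, so the p-values measure only the spread between these libraries, which may be technical.

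Peptide precursors enter the secretory pathway, are packed into dense-core vesicles, are cut by proprotein convertases and are often amidated at their C-terminus. After release they act mostly on G protein-coupled receptors, while the insulin-like peptides act on a receptor tyrosine kinase. In the fly head most of these genes are transcribed in small groups of neurons, for example Pdf in clock neurons and Ilp2 in the insulin-producing cells of the brain, while Ilp6 and CCHa2 are known as fat body hormones. In whole-head RNA, fewer cells of a type and less RNA per cell cannot be told apart.

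Total expected counts ranged from 28070655 to 38182015 in RIP and from 34401553 to 38331703 in input. Ribosomal RNA took 6.55% ± 2.49 of RIP counts and 79.9% ± 2.67 of input counts (SD, n = 3 each), so 25434735 to 36377598 counts in RIP, but only 5864723 to 8182107 in input, came from other genes. The 37 peptide genes together had 17793, 16821 and 14425 counts in RIP libraries 1, 2 and 3, against 5396, 7285 and 10493 in input. Libraries numbered 3 stood apart in both groups. The summed level of 6 fat body markers was 2.26 times higher in RIP 3 than in the mean of RIP 1 and 2, and 2.52 times higher in input 3 than in the mean of input 1 and 2. For 5 testis markers the same ratios were 0.174 in RIP and 0.168 in input. The fat body list includes the yolk protein genes Yp1, Yp2 and Yp3. The part of the mix of males and females in these shifts was not tested. Results are therefore also given from the libraries numbered 1 and 2 only.

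The labelled tissue was checked against markers. The summed level of 8 neuron markers, in counts scaled by library size and TMM factor (CPM), was 5249 to 7004 in RIP and 2103 to 2737 in input, and 8 photoreceptor markers summed to 8352 to 8742 in RIP and 9514 to 10616 in input. All 8 neuron markers were enriched in RIP, with a median log2 fold change of 1.32, while 20.2% of all genes tested were enriched. These markers are long, with a median length of 6587 bases against 1822 bases over all genes tested. With the trend of fold change on transcript length removed, as described below, 5 were enriched, with a median of 0.59, against 7.65% of all genes. Sums of 7 glia markers (439 to 652 in RIP, 486 to 784 in input) and of 6 fat body markers (2489 to 5902 in RIP, 2202 to 5951 in input) overlapped between the groups, and 7 muscle markers were lower in RIP (2804 to 3149) than in input (4205 to 5300), with 5 depleted. The muscle markers had a median length of 1595 bases, and 4 were depleted with the length trend removed. Of the 8 photoreceptor markers 3 were depleted, with log2 fold changes from -2.34 for Arr1 to 0.77 for norpA. With the length trend removed 6 of them were depleted. Over all genes 17.0% were depleted, or 11.6% with that trend removed. No marker of these 5 lists was at 0 in either group. The part of these cell types in the fold changes below was not tested.

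Peptide precursor mRNAs were more often depleted than enriched in RIP. Of the 33 tested, 15 were depleted in RIP and 4 were enriched, with edgeR's quasi-likelihood test at an adjusted p under 0.05 over all tested genes. Over all 11670 genes 17.0% were depleted and 20.2% enriched. The median log2 fold change was -0.88 over the 33 peptide genes and 0.06 over all genes tested, and single values ran from -2.82 for SIFa to 0.91 for Proc. Because the scaling sets the middle of all genes near 0, a fold change here says how a gene was recovered compared with the bulk of genes. The 15 depleted genes were also the 15 with all 3 RIP libraries below all 3 inputs, which held for 24.3% of all genes, and the 4 enriched genes were the 4 with all 3 RIP libraries above, which held for 26.5% of all genes.

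The comparison of libraries with the same number gave more calls. With the replicate number as a block, 18 peptide genes were depleted and 6 enriched, against 27.7% and 32.7% of all genes (3229 and 3821 genes). From the libraries numbered 1 and 2 only, 20 were depleted and 4 enriched, with a median of -1.05. Over all genes in that fit the shares called were higher too, with 28.6% depleted and 24.7% enriched. Leaving out each library in turn gave 11, 10 and 17 depleted peptide genes without RIP 1, 2 and 3, and 13, 11 and 14 without input 1, 2 and 3. In the same fits 12.5%, 12.0% and 19.2% (without RIP 1, 2 and 3) and 12.1%, 12.0% and 13.4% (without input 1, 2 and 3) of all genes were depleted. The enriched peptide genes numbered 3, 2 and 3 without RIP 1, 2 and 3, beside 15.9%, 14.5% and 16.5% of all genes. They numbered 2, 4 and 5 without input 1, 2 and 3, beside 13.2%, 12.9% and 21.2% of all genes.

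**Figure D1:**
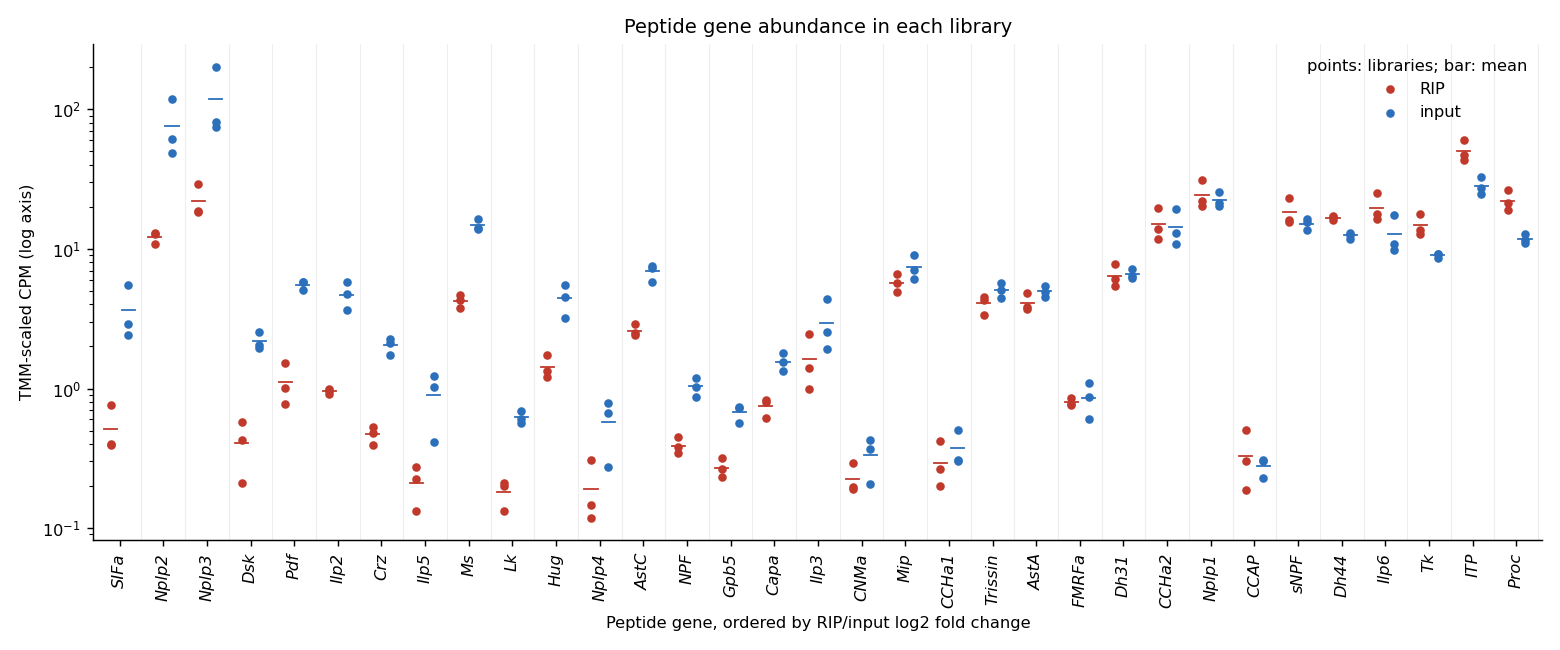
Abundance of the 33 tested peptide genes in each library, as TMM-scaled CPM on a log axis, with RIP points left of input points and a bar at each group's mean (n = 3 each). Genes run from the lowest RIP/input ratio (SIFa, log2 -2.82) on the left to the highest (Proc, 0.91) on the right, and input 3 lies well above the other inputs for Nplp2 and Nplp3.

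Among the 6 peptides of the clock and of water balance, 3 were depleted (Pdf, Lk and Capa) and 2 were enriched (ITP and Dh44). Over all genes tested 17.0% were depleted and 20.2% enriched, here and beside the group counts below. Pdf, Lk and Capa (626 to 695 bases) are under 750 bases, where 54.5% of coding genes were depleted. Pdf encodes pigment-dispersing factor, the main output peptide of the ventral clock neurons. Its single-exon gene lies at chr3R:26455462-26456141 (dm6, minus strand). Pdf had 1.01, 0.772 and 1.53 CPM in the 3 RIP libraries, against 5.10, 5.75 and 5.76 CPM in input. The groups did not overlap, with a log2 fold change of -2.33 ± 0.28 (SE, edgeR adjusted p = 0.00161), 5.02 times lower in RIP.

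ITP, the ion transport peptide, is an antidiuretic hormone that is also made by a few clock neurons, and it had the highest counts of the enriched peptide genes. It had 46.8, 43.1 and 60.8 CPM in RIP, against 27.4, 24.8 and 32.7 CPM in input. All 3 RIP libraries were above all inputs, and ITP rose by a log2 change of 0.83 ± 0.17 (edgeR adjusted p = 0.0106). Without input 1 the adjusted p was 0.0511. Exons of ITP share 296 bases with CG4622 on the opposite strand, whose own log2 fold change was -0.53 (edgeR adjusted p = 0.0585). The strand setting of the counting is not given in the sources used here, so reads of such pairs cannot be told apart.

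Dh44, a diuretic hormone related to corticotropin-releasing factor that also carries clock output, had 16.8, 16.2 and 17.3 CPM in RIP, against 11.8, 13.1 and 12.6 CPM in input. The ranges did not overlap, and the log2 fold change of 0.42 ± 0.09 (edgeR adjusted p = 0.0134) was the smallest among the called peptide genes. The call was lost without any 1 of the RIP libraries (adjusted p = 0.0680, 0.0835 and 0.0800 without RIP 1, 2 and 3), and with libraries 1 and 2 only it was 0.24 (adjusted p = 0.0579).

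Lk, or leucokinin, acts on the renal tubules and on feeding, and Capa encodes cardioacceleratory peptides that regulate the tubules. Lk had 0.132, 0.200 and 0.210 CPM in RIP and 0.607, 0.690 and 0.566 CPM in input, which is only 10 to 15 counts in each library. Its log2 fold change was -1.78 ± 0.37 (edgeR adjusted p = 0.0118), and the adjusted p was 0.0530 without RIP 1, 0.0559 without RIP 2 and 0.0555 without input 2. The Lk value is uncertain for another reason, since 582 bases of its 626-base transcript overlap the antisense RNA asRNA:CR44843, for which the log2 fold change was -0.26 ± 0.24 (edgeR adjusted p = 0.466). Capa had 0.618, 0.825 and 0.799 CPM in RIP and 1.34, 1.79 and 1.54 CPM in input, a log2 change of -1.06 ± 0.25 (edgeR adjusted p = 0.0184). That call too was lost without RIP 1 (adjusted p = 0.0687), RIP 2 (0.0628) or input 2 (0.0757). Dh31, a calcitonin-like diuretic hormone, had 5.43 to 7.84 CPM in RIP and 6.20 to 7.22 CPM in input, overlapping, and was not called (log2 -0.04, edgeR adjusted p = 0.890). With libraries 1 and 2 only Dh31 was depleted (log2 -0.39, edgeR adjusted p = 0.0300).

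The allatostatins, tachykinin and crustacean cardioactive peptide (CCAP) form the second group, with 1 gene of 5 enriched and 1 depleted. Over all genes 20.2% were enriched and 17.0% depleted. Tk encodes the tachykinins, which modulate olfaction, feeding and aggression. It had 12.8, 13.8 and 17.8 CPM in RIP, against 8.56, 9.20 and 9.26 CPM in input. RIP was above input in every library, with a log2 change of 0.71 ± 0.15 (edgeR adjusted p = 0.0123). The adjusted p was 0.0632 without RIP 2 and 0.0538 without input 1.

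AstC, the somatostatin-like allatostatin, had 2.88, 2.42 and 2.48 CPM in RIP and 5.83, 7.50 and 7.36 CPM in input. The groups were well apart, with a log2 change of -1.41 ± 0.17 (edgeR adjusted p = 0.00148), and AstC stayed depleted whichever library was left out. The other allatostatins are unrelated in sequence to AstC and were not called over all 6 libraries. AstA had 3.69 to 4.83 CPM in RIP and 4.55 to 5.46 CPM in input (log2 -0.27 ± 0.17, edgeR adjusted p = 0.270). Mip had 4.88 to 6.59 CPM in RIP and 6.12 to 9.06 CPM in input, with a log2 change of -0.38 ± 0.20 (edgeR adjusted p = 0.197, and 0.0156 with the replicate block). With libraries 1 and 2 only both were depleted, AstA at -0.49 (edgeR adjusted p = 0.0207) and Mip at -0.57 (0.00756). CCAP, which drives ecdysis behaviour and heartbeat, had 14 to 24 counts in RIP and 5 or 6 in input and was not called (log2 0.22 ± 0.51, edgeR adjusted p = 0.778). Exons of CCAP overlap those of CG6972 by 78 bases on the opposite strand.

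Of 7 tested feeding peptides none was enriched and 4 were depleted (SIFa, Dsk, Hug and NPF). Over all genes 20.2% were enriched and 17.0% depleted. SIFa, Dsk and NPF (526 to 569 bases) are under 750 bases, where 54.5% of coding genes were depleted. SIFa, made by a few large neurons that reach much of the brain, had 0.395, 0.399 and 0.757 CPM in RIP, against 2.92, 2.44 and 5.56 CPM in input. All RIP values were below all inputs, and the log2 fold change of -2.82 ± 0.45 (edgeR adjusted p = 0.00407), or 7.08 times lower, was the lowest of the tested peptide genes. Dsk, the cholecystokinin-like satiety peptide, had 0.579, 0.426 and 0.210 CPM in RIP and 2.07, 2.53 and 1.96 CPM in input (log2 -2.41 ± 0.40, edgeR adjusted p = 0.00481). Both were lower in every RIP library than in any input. Exons of SIFa share 111 bases with Start1 on the opposite strand (log2 -0.01, not called).

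Hug, the precursor of a pyrokinin made in a cluster of neurons below the oesophagus, had 1.21, 1.74 and 1.35 CPM in RIP, against 4.56, 5.52 and 3.19 CPM in input (log2 -1.62 ± 0.27, edgeR adjusted p = 0.00483). NPF, the fly counterpart of vertebrate neuropeptide Y, had 0.447, 0.346 and 0.378 CPM in RIP, against 1.03, 1.196 and 0.875 CPM in input. Its log2 fold change was -1.40 ± 0.29 (edgeR adjusted p = 0.0114), with an adjusted p of 0.0547 without RIP 2 and 0.0511 without input 2. The short neuropeptide F gene sNPF is a separate gene despite the shared name, and promotes feeding. It had 16.1, 15.7 and 23.4 CPM in RIP and 13.7, 16.3 and 15.5 CPM in input. These ranges overlapped, and the log2 fold change was 0.28 ± 0.18 (edgeR adjusted p = 0.297, and 0.0488 with the replicate block). With libraries 1 and 2 only it was -0.09. The gut and brain peptides CCHa1 (log2 -0.37 ± 0.47, edgeR adjusted p = 0.601) and CCHa2 (log2 0.07 ± 0.27, edgeR adjusted p = 0.881) were not called. RYa, the remaining gene of the group, had 0, 1 and 2 counts in RIP and none in input and was not tested.

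In the group of stress, muscle and other peptides, 1 of 6 tested genes was enriched and 2 were depleted, against 20.2% and 17.0% of all genes. Proc, or proctolin, is a pentapeptide that strengthens muscle contraction, encoded at chr2L:7864642-7871432 (dm6, minus strand). It had 21.3, 19.1 and 26.4 CPM in RIP, against 11.6, 12.8 and 11.01 CPM in input. With no overlap and a log2 change of 0.91 ± 0.15 (edgeR adjusted p = 0.00442, 1.88 times higher), Proc was the highest of the tested peptide genes. It was the one enriched peptide gene whose call held whichever library was left out. With libraries 1 and 2 only the log2 fold change was 0.55 (edgeR adjusted p = 0.00059), so its size rested in part on the libraries numbered 3.

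Ms, the precursor of myosuppressin, which inhibits muscle contraction, lies at chr3R:24341551-24343825 (dm6, plus strand). It had 4.30, 3.77 and 4.69 CPM in RIP, against 13.9, 16.5 and 14.2 CPM in input. Replicates were close within each group, and the log2 fold change was -1.81 ± 0.14 (edgeR adjusted p = 0.00045), 3.50 times lower in RIP. Crz encodes corazonin, a stress peptide related to vertebrate gonadotropin-releasing hormone and made by a few neurons of the lateral brain. It had 0.395, 0.532 and 0.483 CPM in RIP and 2.25, 2.12 and 1.75 CPM in input, a log2 change of -2.11 ± 0.25 (edgeR adjusted p = 0.00149). Trissin (log2 -0.31 ± 0.18, edgeR adjusted p = 0.248), FMRFa (log2 -0.12 ± 0.30, edgeR adjusted p = 0.793) and CNMa (log2 -0.54 ± 0.46, edgeR adjusted p = 0.427) overlapped between the groups. Akh, the adipokinetic hormone, had 3, 8 and 6 counts in RIP and 1, 4 and 3 in input, and amn, linked to memory, had 4, 6 and 5 counts in RIP and 0, 1 and 1 in input. Both were too low to test. Exons of amn overlap Hers on the opposite strand by 140 bases.

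Insulin-like peptides and the glycoprotein hormone subunit Gpb5 had 3 depleted genes of 5 tested and none enriched. Over all genes 17.0% were depleted and 20.2% enriched. The depleted Ilp2, Ilp5 and Gpb5 (478 to 687 bases) are under 750 bases, where 54.5% of coding genes were depleted. Ilp2, Ilp3 and Ilp5 are the insulin-like peptides of the brain's insulin-producing cells. Ilp2, at chr3L:9799698-9800440 (dm6, plus strand), had 0.921, 0.958 and 0.988 CPM in RIP, against 3.64, 4.74 and 5.76 CPM in input. RIP values were nearly equal and far below input, with a log2 change of -2.30 ± 0.22 (edgeR adjusted p = 0.000822), 4.93 times lower.

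Ilp5 had 0.224, 0.133 and 0.273 CPM in RIP and 1.03, 0.414 and 1.24 CPM in input (log2 -2.08 ± 0.53, edgeR adjusted p = 0.0238). With 9 to 24 counts a library its call was lost without RIP 1 (adjusted p = 0.0786), RIP 2 (0.0815), input 1 (0.0856) or input 3 (0.0737). Ilp3 had 1.41, 0.998 and 2.44 CPM in RIP, against 2.55, 1.93 and 4.37 CPM in input. The groups overlapped, since RIP 3 was above input 2, and Ilp3 was not called (log2 -0.88 ± 0.44, edgeR adjusted p = 0.182). Within each number RIP was lower than input, and with the replicate block the adjusted p was 0.000297. With libraries 1 and 2 only Ilp3 was depleted too (log2 -1.05, edgeR adjusted p = 0.00469).

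Ilp6, the insulin-like peptide of the fat body and of glia, had 17.8, 16.4 and 25.1 CPM in RIP, against 10.8, 9.89 and 17.6 CPM in input. Input 3 reached into the RIP range, and the log2 fold change of 0.63 ± 0.27 was not called (edgeR adjusted p = 0.125). It was called with the replicate block (0.65, adjusted p = 5.86e-06), without input 3 (0.96, adjusted p = 0.0244) and with libraries 1 and 2 only (0.56, adjusted p = 0.000606). Gpb5 had 0.316, 0.266 and 0.231 CPM in RIP and 0.729, 0.736 and 0.566 CPM in input (log2 -1.31 ± 0.33, edgeR adjusted p = 0.0232). With 11 to 24 counts a library, its call was lost without RIP 1 (adjusted p = 0.0660), RIP 2 (0.0879), input 1 (0.0817) or input 2 (0.0878). Ilp7 had 5, 8 and 2 counts in RIP and 1, 0 and 2 in input and was not tested. Its exons share 9 bases with Parg on the opposite strand.

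Of the 4 neuropeptide-like precursors 2 were depleted, Nplp2 and Nplp3, and per length these had the highest input levels of the 37 genes. Both (453 and 538 bases) are under 750 bases, where 54.5% of coding genes were depleted, against 17.0% of all genes. Nplp3 lies at chr3L:16318024-16318690 and Nplp2 at chr3L:13356376-13357223 (dm6, both plus strand). Nplp2 had 12.95, 10.9 and 12.7 CPM in RIP, against 61.5, 48.3 and 119 CPM in input (log2 -2.64 ± 0.35, edgeR adjusted p = 0.00214, 6.25 times lower). Nplp3 had 18.6, 18.5 and 29.3 CPM in RIP, against 75.1, 80.9 and 203 CPM in input (log2 -2.43 ± 0.45, edgeR adjusted p = 0.00708). Input 3 held the highest value of both, and with libraries 1 and 2 only the log2 fold changes were -2.36 and -2.24. Nplp1, the neuronal precursor of the group, had 20.2, 22.2 and 31.0 CPM in RIP and 21.4, 25.8 and 20.2 CPM in input. It was not called (log2 0.12 ± 0.19, edgeR adjusted p = 0.673), and with libraries 1 and 2 only its sign turned (log2 -0.32, edgeR adjusted p = 0.0242). Nplp4 had 6 to 23 counts a library and a log2 change of -1.56 ± 0.59 (edgeR adjusted p = 0.0859, and 0.0146 with the replicate block).

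**Figure D2:**
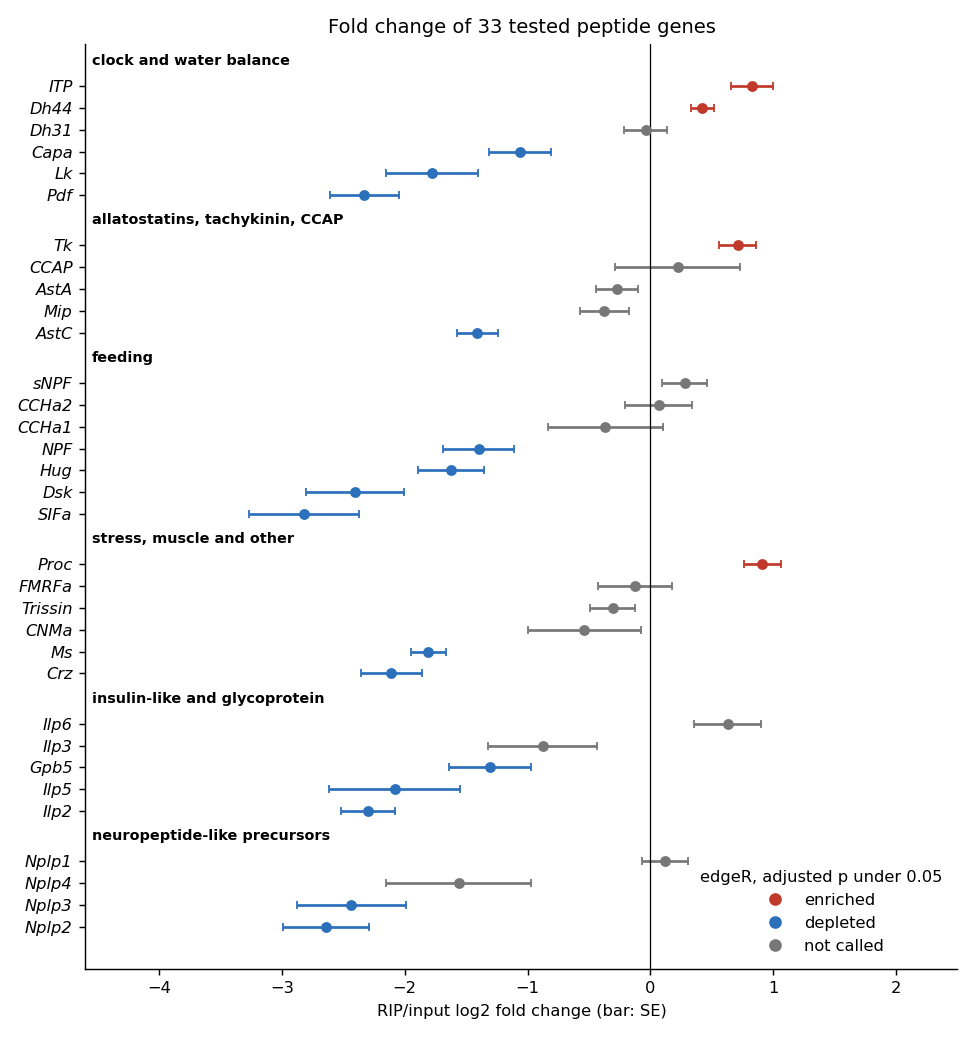
RIP/input log2 fold change of the 33 tested peptide genes by group of function, with bars of 1 standard error (3 RIP and 3 input libraries). The enriched genes ITP, Dh44, Tk and Proc (0.42 to 0.91) come from 3 of the 6 groups, and each of the 6 groups holds at least 1 depleted gene. Over all genes tested 20.2% were enriched and 17.0% depleted.

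Peptide genes with longer transcripts had higher fold changes. Across the 33 tested genes Spearman's rho between log2 fold change and the mean transcript length given by RSEM was 0.82, and across 11118 protein-coding genes tested it was 0.68. The genes share libraries and are not independent, so these are descriptions. The mean fragment length also differed between the groups, at 194, 194 and 206 bases in RIP libraries 1, 2 and 3 and 171, 170 and 161 bases in input. Its part in the relation of fold change to transcript length was not tested. Peptide precursors are short, with a median length of 857 bases against 1822 bases over all genes tested. Among the 32 tested members with an annotated transcript, rho was 0.46 for the coding length, 0.64 for the 5′ UTR, 0.62 for the 3′ UTR and 0.61 for the number of exons. In 11062 coding genes these values were 0.53, 0.44, 0.49 and 0.36.

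Peptide genes were next set beside all tested coding genes of like length. Of 14 peptide genes under 750 bases 12 were depleted, with a median log2 fold change of -2.10, while 54.5% of all 1086 coding genes under that limit were depleted, with a median of -1.29. Of 11 peptide genes of 750 to 1500 bases 3 were depleted and none enriched (median -0.37), against 28.8% depleted of 3088 coding genes (median -0.43). Of 8 peptide genes over 1500 bases 4 were enriched and none depleted (median 0.53), against 32.1% enriched and 6.47% depleted of 6944 coding genes (median 0.31). These limits were chosen after the values were seen, and the upper one matters. With it at 1200 bases the middle class held 5 peptide genes, with a median of -0.88 against -0.55 over 1876 coding genes, and the 14 longer ones had a median of 0.09 against 0.23 over 8156.

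With the loess trend of fold change on length removed, 8 peptide genes were depleted and 3 enriched, against 11.6% and 7.65% of all genes, and the median was -0.15. The depleted genes were then SIFa (-1.59, edgeR adjusted p = 0.0497), Pdf (-1.40, 0.0213), Ilp2 (-1.35, 0.0123), Nplp2 (-1.24, 0.0481), Ms (-1.23, 0.00478), Hug (-1.15, 0.0324), Crz (-1.13, 0.0274) and AstC (-1.07, 0.0111). Proc (0.88, adjusted p = 0.0135) and Tk (0.84, 0.0164) remained enriched. Trissin, a cysteine-rich peptide with a transcript of only 551 bases, became the third enriched gene (0.88, edgeR adjusted p = 0.0247), although its CPM was 3.34 to 4.55 in RIP and 4.43 to 5.66 in input. ITP (0.54, adjusted p = 0.0702) and Dh44 (0.28, adjusted p = 0.0837) were no longer called. Dsk (-1.26, adjusted p = 0.0696) and Nplp3 (-1.22, 0.0995) also lost their call, though their fold changes were about those of Nplp2 and Ms. Ilp5 (-0.75, adjusted p = 0.380), Lk (-0.75, 0.216), Gpb5 (-0.39, 0.474), NPF (-0.22, 0.651) and Capa (-0.16, 0.715) were lost with smaller values. In all, 21 of the 33 lay below the trend and 12 above it, while 5753 of all 11670 genes lay above it.

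**Figure D3:**
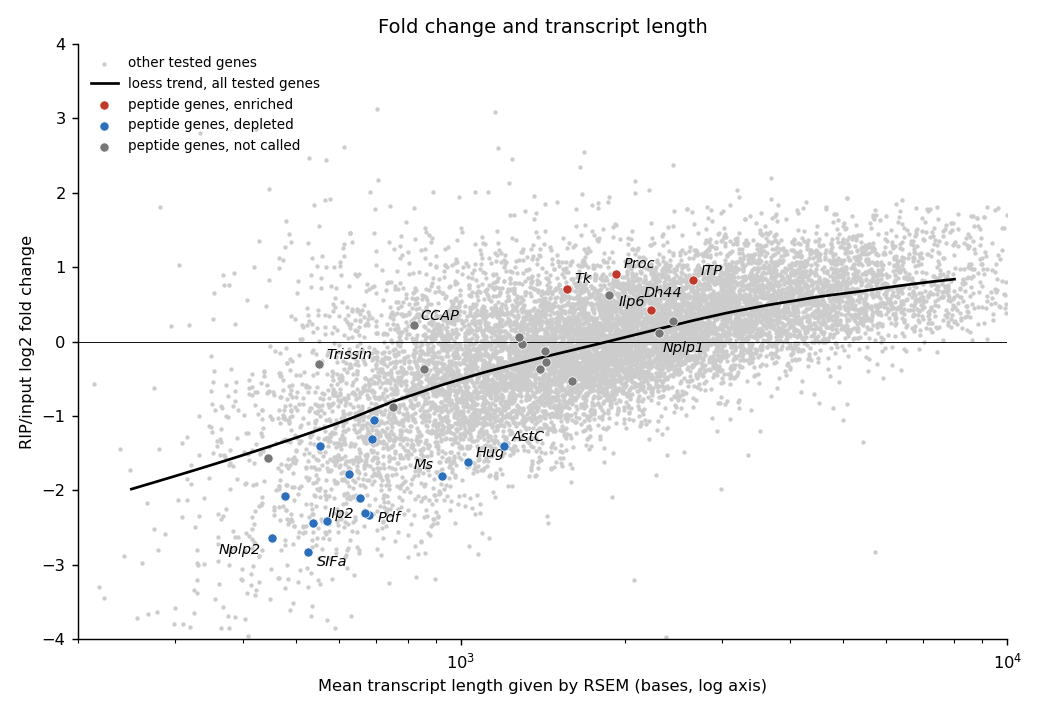
RIP/input log2 fold change against mean transcript length (log axis) for the tested genes, with the loess trend over all of them and the 33 peptide genes coloured by their call. Of the tested genes 220 lie outside the axes. SIFa, Pdf, Ilp2, Ms, Hug and AstC lie below the trend, while Trissin, Tk and Proc lie above it.

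RSEM also gives each gene a mean transcript length weighted by its estimated isoforms, which differs between libraries only where a gene has more than 1 transcript. Among 17 such tested peptide genes, ITP and Dh44 had clearly longer estimates in RIP. For Dh44 the length was 2372 bases in all 3 RIP libraries, against 1989, 2068 and 2204 bases in input. Its annotated transcripts have 2372 bases, with a 3′ UTR of 983 bases, and 1412 bases, with a 3′ UTR of 310 bases, and share a coding length of 1068 bases, so the RIP counts of Dh44 were assigned to the long one alone. For ITP the length was 2832, 2775 and 3120 bases in RIP, against 2384, 2426 and 2432 bases in input, 20.5% longer. ITP has 5 annotated transcripts, of 974 to 3646 bases, and the longest has a 3′ UTR of 2206 bases.

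Proc went the other way by a small amount, with 1892, 1897 and 1908 bases in RIP and 1959, 1959 and 1936 bases in input, and CCHa2 was 0.502% longer in RIP. The other 13 overlapped between the groups. Of all 6558 tested genes with more than 1 transcript, 26.2% had longer estimates in RIP with no overlap, 11.2% had shorter ones, and 5.64% were at least 10% longer on average, as ITP, CCAP and Dh44 were. Isoform shares estimated from short reads are uncertain, and no test was made on them. The part of the longer fragments of the RIP libraries in these estimates was not tested either.

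**Figure D4:**
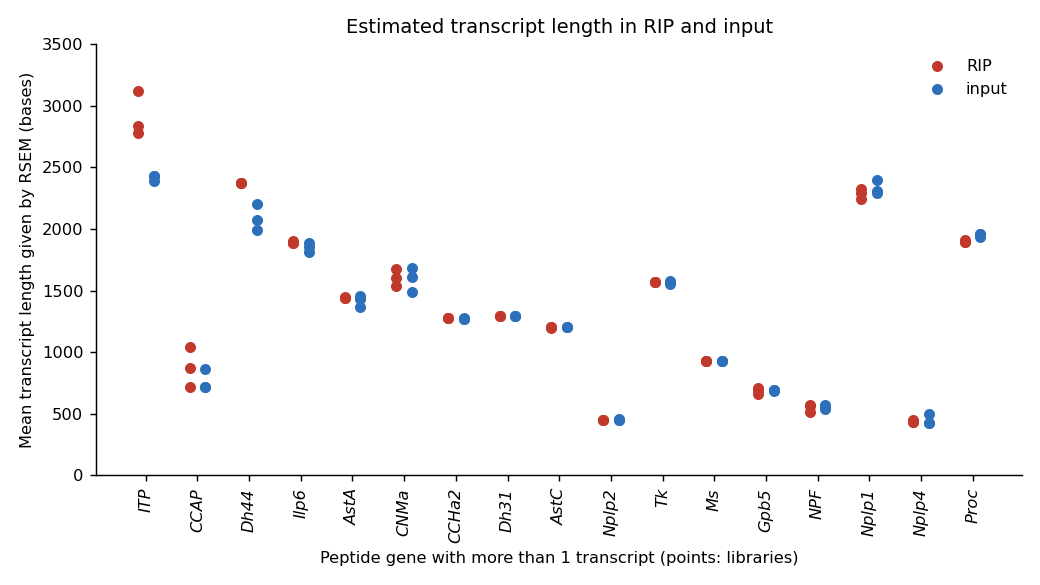
Mean transcript length estimated by RSEM in each library for the 17 tested peptide genes with more than 1 annotated transcript, RIP points left of input points, ordered by the relative difference. ITP and Dh44 are longer in all RIP libraries (2775 to 3120 and 2372 bases) than in any input (2384 to 2432 and 1989 to 2204 bases), and CCAP, with few counts, overlaps.

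Levels can be compared between genes per length, as TPM rescaled so that all genes other than rRNA genes carry the usual total. In RIP the order was Nplp3 (375 ± 85.5 TPM), Nplp2 (278 ± 24.1), ITP (107 ± 5.75), CCHa2 (80.4 ± 16.4) and Proc (75.5 ± 7.91; SD, n = 3 each). In input it was Nplp3 (724 ± 382 TPM), Nplp2 (600 ± 248), Ms (45.3 ± 7.28), Trissin (30.4 ± 5.30) and CCHa2 (29.6 ± 6.91). In RIP all 3 libraries had more Nplp3 (325 to 474 TPM) than any had Nplp2 (254 to 302 TPM). In input Nplp3 and Nplp2 did not differ beyond their spread, and neither did Trissin, CCHa2 and ITP (28.8 ± 2.16 TPM). Proc ranked 5 of 37 in RIP and 14 in input, while Pdf ranked 18 in RIP and 7 in input.

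Genes that act before or after the peptides were mostly not depleted. Receptors for the peptides numbered 40, all tested, of which 19 were enriched and none depleted. Their median log2 fold change was 0.53 and their median length 2958 bases. Over all 11670 genes 20.2% were enriched and 17.0% depleted, and of 6944 coding genes over 1500 bases 32.1% and 6.47% were. InR, the insulin receptor, had 199, 188 and 170 CPM in RIP, against 79.4, 78.5 and 77.3 CPM in input (log2 1.25 ± 0.09, edgeR adjusted p = 0.000376). SPR, the receptor for sex peptide and for Mip peptides, had 18.6, 19.3 and 26.1 CPM in RIP and 8.32, 8.46 and 8.80 CPM in input (log2 1.32 ± 0.16, edgeR adjusted p = 0.0015). Both were above input in every RIP library. SIFaR, the receptor for SIFamide, had 16.3, 18.2 and 17.2 CPM in RIP and 5.47, 7.86 and 7.26 CPM in input (log2 1.33 ± 0.16, edgeR adjusted p = 0.0015), while SIFa itself was the lowest peptide gene. With the length trend removed 9 receptors were enriched and 1 depleted, against 7.65% and 11.6% of all genes.

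Of 11 tested genes of dense-core vesicle traffic and release, 8 were enriched and mon2 alone was depleted (log2 -0.30, edgeR adjusted p = 0.0314), with a median of 0.60. Their median length was 3103 bases, and 32.1% of coding genes over 1500 bases and 20.2% of all genes were enriched. Ia-2, a phosphatase-like membrane protein of the vesicles, had 5152, 5881 and 6613 CPM in RIP, against 2209, 2486 and 2502 CPM in input (log2 1.29 ± 0.16, edgeR adjusted p = 0.00175). Cadps, the priming factor CAPS, was 1.27 ± 0.18 (log2, edgeR adjusted p = 0.00264). With the length trend removed 1 gene of this list was enriched, against 7.65% of all genes. The enriched count was 4 without RIP 2, without input 1 or without input 2, beside 14.5%, 13.2% and 12.9% of all genes.

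The 11 genes of peptide processing had both directions, with 3 enriched, 2 depleted and a median of 0.07. Over all genes 20.2% were enriched and 17.0% depleted. Fur1, a furin-like convertase, was enriched (log2 1.25 ± 0.21, edgeR adjusted p = 0.00475), as was dimm, the transcription factor of peptidergic cells, at 1.66, 1.64 and 2.10 CPM in RIP and 0.790, 0.782 and 0.669 CPM in input (log2 1.26 ± 0.23, edgeR adjusted p = 0.00697). The third was svr, a carboxypeptidase. The depleted genes were 7B2, the helper of the convertase amon, with 9.17, 9.57 and 10.0 CPM in RIP and 21.1, 24.2 and 24.2 CPM in input (log2 -1.27 ± 0.10, edgeR adjusted p = 0.000499), and Phm, which carries out the first step of amidation (log2 -0.85 ± 0.11, edgeR adjusted p = 0.00215). With the replicate block 5 genes of this list were enriched and 3 depleted, beside 32.7% and 27.7% of all genes.

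Among peptide genes outside the 37, depletion was the more frequent call. Of 6 tested, 4 were depleted and none enriched, with a median of -0.95, while 17.0% of all genes were depleted. These 6 had a median length of 1014 bases but fell into all 3 length classes used above. Orcokinin (615 bases) and Eh (702 bases) were under 750 bases, where 54.5% of coding genes were depleted. The depleted spab (1203 bases) and the uncalled Ptth and Lst were in the class of 750 to 1500 bases, with 28.8% depleted. The depleted natalisin (1991 bases) was over 1500 bases, where 6.47% were. With the length trend removed 3 were depleted, against 11.6% of all genes. Orcokinin had 0.815, 0.918 and 0.757 CPM in RIP, against 4.19, 5.43 and 3.86 CPM in input (log2 -2.43 ± 0.21, edgeR adjusted p = 0.000619). Eh, the eclosion hormone, was -2.53 ± 0.37 (log2, edgeR adjusted p = 0.00299). The others were spab (-0.86) and natalisin (-1.04). The depleted count was 2 without RIP 1 or without RIP 2, beside 12.5% and 12.0% of all genes.

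**Figure D5:**
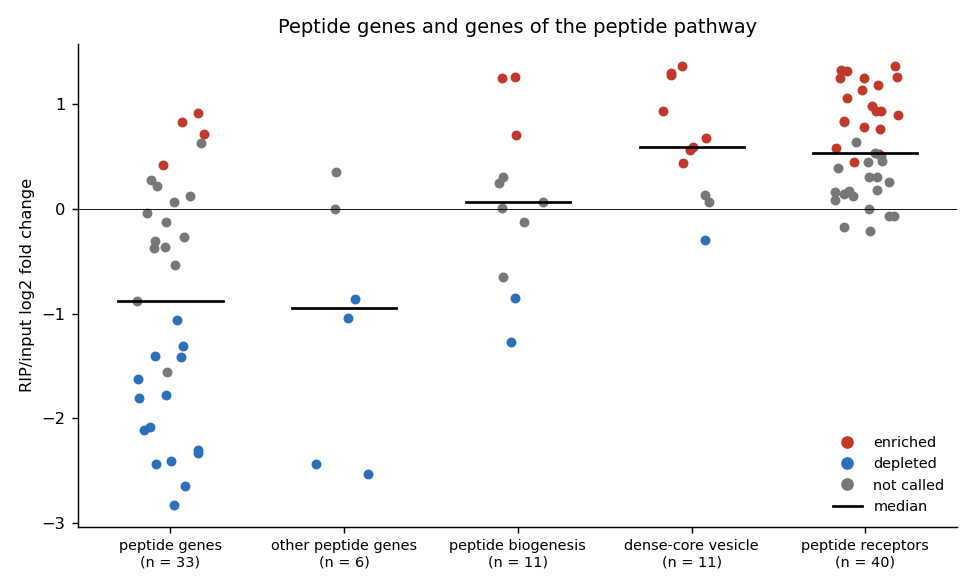
RIP/input log2 fold change of the 33 tested peptide genes, 6 other peptide genes and the genes of peptide processing (11), dense-core vesicles (11) and peptide receptors (40), with a line at each median. Medians are -0.88, -0.95, 0.07, 0.60 and 0.53, and no receptor gene was depleted.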

How the data were processed

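RNA-seq was made from 3 Zn72D-GFP immunoprecipitates and 3 inputs of adult heads, with rRNA removed by RNase H and DNA oligonucleotides of 50 bases (source: the labels' protocols). The build dm6 and the tools RSEM 1.2.30, STAR 2.5.4b, Trim Galore 0.4.5 and DESeq2 1.20.0 are listed in the submitters' processing notes. Neither the release of the annotation nor the strand setting is given in the sources. The authors deposited, per gene and library and per the file headers, expected counts from RSEM, TPM and transcript lengths. TPM, as the authors deposited it, was rescaled here without rRNA genes.

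Of 17453 gene IDs, 17179 matched an Ensembl dm6 annotation directly and 197 through transcripts, while 77 had no symbol. All 222 expected counts of the peptide genes were whole as listed, with no tolerance. Expected counts were rounded and kept by filterByExpr, scaled by TMM (factors 1.69 to 2.01 in RIP and 0.479 to 0.608 in input) and tested with edgeR 4.0.16 (quasi-likelihood, group as the only term, R 4.3.3), with Benjamini-Hochberg adjustment over 11670 genes at 0.05. The SE is the fold change divided by the root of F. CPM uses TMM-scaled library sizes.

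No 2 libraries of a group agreed within sampling noise (15.8 to 142 chi-square units per degree of freedom), and all were kept as separate samples. RIP and input libraries of the same number deviated together (correlations 0.665, 0.604 and 0.848), so the numbers were taken to pair them. Crossing 1 and 2 gave 0.626 and 0.604, so only number 3 is set apart. A fit with the number as a block was also made, beside other scalings, no filter, DESeq2 1.42.0, limma 3.58.1 on counts and on log2(TPM + 1), removal of a loess length trend (span 0.5), and leaving out libraries.

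The peptide genes and pathway lists were chosen with earlier results of these data known. All 37 genes are named, and of each pathway list the 2 genes of smallest p in the direction of most calls and 1 in the other, plus genes whose exons overlap a peptide gene. Other genes named beside these were chosen after their values were seen. Counting error limits the genes with the fewest counts. Sequences are not shown here.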

Additional observations from a re-analysis of the deposited data

How the results depend on the processing

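The scaling decides the direction in absolute terms. With library size alone the median of all genes was 1.90 and that of the peptide genes 0.95, and with limma on log2(TPM + 1) these were 2.54 and 1.52. Relative to the shift, the library-size value of each of the 33 peptide genes moved by less than the spread between replicates, while with TPM 7 did so, 21 moved by more and 5 changed sign. Counts under these 2 settings, in that order, were 9386 and 11296 enriched and 173 and 25 depleted over all genes (main 2362 and 1989), 15 and 31 enriched and 1 and 0 depleted peptide genes (main 4 and 15), 11 and 11 enriched and 0 and 0 depleted processing genes (main 3 and 2), 0 and 0 depleted vesicle genes (main 1), 40 and 40 enriched receptors (main 19), and 4 and 6 enriched and 0 and 0 depleted other peptide genes (main 0 and 4).

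Removing the length trend gave 893 enriched genes, 8 depleted peptide genes, 1 enriched processing gene, 1 enriched vesicle gene, and 9 enriched and 1 depleted receptor. The peptide median was then -0.15, or -0.14 less that of all genes (main -0.93). The replicate block gave 3821 enriched and 3229 depleted genes and 5 enriched processing genes, and changed no call of a peptide gene other than the 5 given in the report. The replicate block with the length trend removed gave 7 enriched and 10 depleted peptide genes, beside 2784 enriched and 3019 depleted genes in all. The same fit gave 4 depleted processing genes, 2 depleted vesicle genes, 3 depleted receptors and 2 enriched other peptide genes. Its peptide medians were -0.15 and -0.14. Libraries numbered 1 and 2 only gave 3498 depleted genes, 4 depleted processing genes, 2 depleted vesicle genes, 1 enriched other peptide gene and a peptide median of -1.05. RLE scaling and leaving out rRNA genes each gave 5 enriched vesicle genes, beside 2012 and 1825 enriched genes in all. Leaving out rRNA genes gave 4 depleted processing genes, beside 2488 depleted genes in all, and ended the call of Dh44 (adjusted p = 0.0544). No filter gave 0 depleted vesicle genes, beside 1588 depleted of 15795 genes.

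Leaving out 1 library at a time gave 2 to 5 enriched and 10 to 17 depleted peptide genes, 4 to 8 enriched and 0 to 1 depleted vesicle genes, 12 to 23 enriched receptors, 0 to 1 enriched and 2 to 4 depleted other peptide genes, a peptide median of -1.22 to -0.75, and -1.23 to -0.73 less that of all genes. Of the peptide genes near 0, none of them called, the sign turned for these. FMRFa was 0.079 with the length trend removed, 0.074 with the block as well, and -0.31 to 0.11 without 1 library. Dh31 was 0.021 with no filter, 0.46 with TPM relative to the shift, 0.24 with the length trend removed, 0.22 with the block as well, and -0.32 to 0.044 without 1 library. Nplp1 was -0.0064 with upper quartile scaling, -0.027 without rRNA genes, -0.050 with the length trend removed, -0.070 with the block as well, -0.32 with libraries 1 and 2 only, and -0.20 to 0.25 without 1 library. CCHa2 was -0.030 with upper quartile scaling, -0.079 without rRNA genes, -0.055 with libraries 1 and 2 only, and -0.27 to 0.36 without 1 library. CCAP was -0.053 with limma-voom, -1.06 with TPM relative to the shift, -0.27 with libraries 1 and 2 only, and -0.31 to 0.50 without 1 library. sNPF was -0.085 with libraries 1 and 2 only and -0.046 to 0.36 without 1 library. With TPM relative to the shift AstA was 0.072, Mip 0.16 and Trissin 0.50. With the length trend removed CCHa1 was 0.29 and Trissin 0.88, and with the block as well 0.25 and 0.87. AstA became depleted without RIP 3 (-0.51, edgeR adjusted p = 0.0443). For all of these the cause was not tested. DESeq2 and RLE scaling changed no peptide gene's sign or side of the threshold. Input libraries held 5864723 to 8182107 counts outside rRNA, and CCAP, CNMa, CCHa1, Nplp4, Lk, Gpb5 and Ilp5 had the fewest input counts of the tested peptide genes.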

Other observations

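Within one library the ratio of counts of 2 genes does not depend on scaling, and 4 such ratios, chosen after the values were seen, are given as a description. Ilp3 counts over Ilp2 counts, both from the insulin-producing cells, were 1.53, 1.04 and 2.47 in RIP libraries 1, 2 and 3, against 0.700, 0.408 and 0.759 in input. For Ilp5 over Ilp2 the values were 0.243, 0.139 and 0.277 in RIP and 0.283, 0.0874 and 0.214 in input. The first ratio was higher in RIP with no overlap, while the second overlapped. The ratio of sNPF to Pdf, 2 peptides of clock neurons among other cells, was 15.9, 20.3 and 15.2 in RIP and 2.68, 2.83 and 2.69 in input. Proc over Crz was 53.9, 35.8 and 54.5 in RIP and 5.16, 6.04 and 6.29 in input. Both of these pairs set a longer transcript over a shorter one, sNPF (2447 bases) over Pdf (680) and Proc (1925) over Crz (654). The ratios restate the fold changes given above, and the part of length in them was not tested.

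Several peptide genes were high in both libraries numbered 3. Relative to the mean of libraries 1 and 2, Ilp3 was 2.03 times higher in RIP 3 and 1.95 times in input 3, SIFa 1.91 and 2.08, Nplp3 1.57 and 2.60, CCHa2 1.53 and 1.61, Ilp5 1.53 and 1.71, and Ilp6 1.47 and 1.70. For 6 of the 33 both ratios were over 1.4, as for 5.13% of all tested genes. Nplp2 was 2.16 times higher in input 3 and 1.07 times in RIP 3. The fat body marker sum was 2.26 times higher in RIP 3 and 2.52 times in input 3, and the neuron marker sum 1.31 and 1.30 times. The parts of fat body content and of the mix of males and females in these values were not tested.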
